A study of Secale cereale x Triticum turgidum subsp. durum with 48 samples.

Results

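Ubiquitin is represented on the Affymetrix Wheat GeneChip by control probe sets whose IDs carry the gene's name, and every control probe set with Ta and Ubiquitin in its ID was taken. The rule gave 3 probe sets of the 61290 in the table: AFFX-Ta_Ubiquitin_5_at, AFFX-Ta_Ubiquitin_M_at and AFFX-Ta_Ubiquitin_3_at. They are called the 5′, middle and 3′ probe sets here, after the end or part of the transcript that each ID names. All 3 were measured on every array, none was lost to a filter, and the 5′ probe set, which had the highest mean, gave the main value. By their IDs the probe sets are aimed at 1 transcript, which was not checked against sequence, and as readings from the same arrays they are not replicates of a condition. Their sequences, gene model and position in the genome were not used here.

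Ubiquitin is a small protein that cells attach to other proteins, most often to mark them for breakdown by the proteasome. Plant polyubiquitin genes encode several copies of the protein joined end to end, and the long chain is cut into single units after translation. Transcripts of such genes are abundant in most tissues, and for that reason they are often used as controls against which other genes are read. In ageing leaves of cereals, protein breakdown releases nitrogen that is sent to the filling grain.

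The samples were of triticale, the hybrid cereal derived from wheat and rye, and each of 48 arrays held labelled RNA of 1 sample that the labels call a biological replicate. Seed tissues were dissected at Zadoks stage 85, the soft dough stage of grain filling, on a numbered scale of cereal development. They were the embryo with its scutellum (3 arrays), the crease, which is the vascular bundle of the ventral groove freed of most seed coat (3), the endosperm (3), the pericarp (2) and the epiderm, the outermost layer of the seed coat (2). Root and emerged coleoptile, the sheath around the first shoot, were taken 7 days after sowing at stage 7 (3 arrays each). The stem course followed the internode between the crown and the second node at stages 21, 45, 59 and 75 (3 arrays each). The leaf course comprised the seedling leaf at stage 13 and the leaf at tillering, stage 23 (3 arrays each), and the flag leaf at stages 49, 75 and 85 (5, 3 and 3 arrays), in early booting, early senescence 22 days after anthesis and late senescence 30 days after anthesis. Groups are named below by organ and stage, as in flag leaf 75.

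All plants grew in a chamber without treatment. AC Alta was the cultivar used for root and coleoptile, and AC Certa was used for the other 14 groups. RNA was extracted by a column kit from leaf, stem, crease and epiderm, with an added cleanup for stem, by a guanidine hydrochloride method from embryo, endosperm and pericarp, and by a guanidine isothiocyanate and caesium chloride method from root and coleoptile. The leaf course and the stem course therefore each lie within a single cultivar and extraction method, whereas between organs these cannot be told apart from the organ. The step from leaf 23 to flag leaf 49 also changes the leaf's position on the plant. Each array was labelled from 50 to 100 ng of total RNA, amplified in a pair of cycles. In whole organs, fewer cells of a type and less RNA per cell cannot be told apart.

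Values are deposited log2 values processed by RMA, the robust multi-array average, with medians of 4.87 to 5.03 per array. The 95th percentile of 64 reporter probe sets for foreign marker genes, taken as background, was 5.99. On leaf 23 replicate 2 the profile over all plant probe sets correlated at 0.957 on average with the other arrays of its group. With flag leaf 49, 75 and 85 it correlated at 0.970, 0.971 and 0.968. Leaf 23 replicate 1 correlated at 0.959 with the other arrays of its group and at 0.967 with leaf 13. Flag leaf 49 replicates 4 and 5 had mean hybridization spikes (bacterial and phage RNA added as controls) of 11.90 and 12.48, against 11.40 to 11.60 in replicates 1 to 3. The main leaf results that rest on leaf 23 replicate 2 or on flag leaf 49 replicates 4 and 5 are given with and without these arrays. The organs could not be checked against marker genes, because no marker symbol matched the gene table.

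Ubiquitin was bright on every array. Its 5′ probe set lay between 12.41 and 13.99 and ranked between 25.5 and 474 among the 61140 plant probe sets of each array, counted from the brightest. Values of the middle probe set lay between 12.33 and 13.57, at ranks 69.5 to 514.5. Lower down, the 3′ probe set lay between 9.72 and 12.25, at ranks 470.5 to 3451. The highest value in the table was 15. Array signal can flatten near the top of the scale, so differences between such bright groups may be read as smaller than they are. Whether it did so here was not tested.

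**Figure D1:**
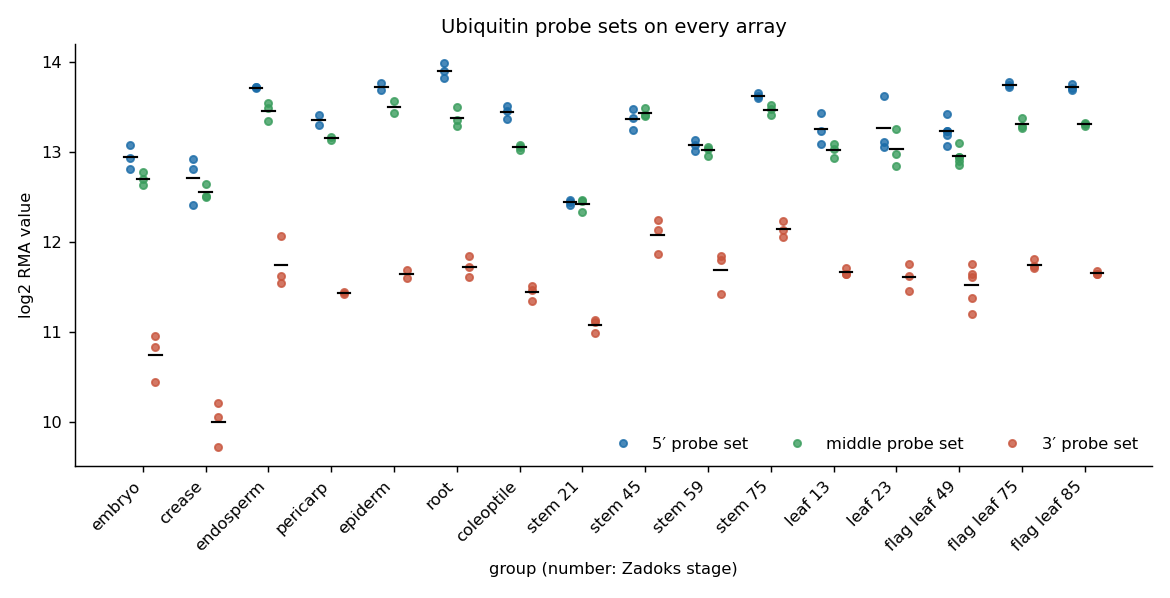
Log2 RMA value (vertical axis) of the 3 Ubiquitin probe sets on each of the 48 arrays, by group, with short bars at the group means. The 5′ and middle probe sets run close together between 12.33 and 13.99, while the 3′ probe set lies lower, down to 9.72 to 10.21 in the crease.

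The groups were not level. Group means of the 5′ probe set ran between 12.44 ± 0.031 in stem 21 and 13.90 ± 0.085 in root (SD, n = 3 each), a range of 1.46 on the log2 scale, or 2.75-fold. Below root, whose arrays lay above those of all other groups, came flag leaf 75 (13.75 ± 0.03, n = 3), epiderm (13.73 ± 0.057, n = 2), flag leaf 85 (13.72 ± 0.036, n = 3) and endosperm (13.72 ± 0.0058, n = 3). The arrays of these 4 groups overlapped with their neighbours in the order. Stem 75 (13.63) followed without overlap with endosperm above it or coleoptile (13.45) below it. From coleoptile through stem 45 (13.37), pericarp (13.36), leaf 23 (13.27), leaf 13 (13.26), flag leaf 49 (13.23), stem 59 (13.08), embryo (12.94) and crease (12.71) to stem 21, each neighbouring pair overlapped. The gap from crease to stem 21 was 0.27, with crease replicate 3 at 12.41, the same value as the lowest stem 21 array. For the groups that stood apart, such as root, the share of plant probe sets that do the same was not counted.

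The spread within groups was small beside this, with a median within-group SD of 0.0744. On the middle probe set the range was 1.08, or 2.12-fold, between stem 21 (12.42 ± 0.078, n = 3) and epiderm (13.50 ± 0.092, n = 2). On the 3′ probe set it was 2.15, or 4.43-fold, between crease (9.99 ± 0.25) and stem 75 (12.14 ± 0.085, n = 3 each). Stem 21 was thus lowest on 2 of the 3 probe sets, and the top group differed between all 3.

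Over the 16 group means, the 5′ and middle probe sets correlated at r = 0.931, the 3′ and middle at 0.805 and the 3′ and 5′ at 0.689. These values describe points that share arrays, normalization and, within organs, cultivar and extraction method. The 5′ and middle probe sets were also set beside all 268 plant probe sets with a mean over 12, a level chosen after the values were seen, of which they are members. The SD of group means had a median of 0.617 over the 268. That of the Ubiquitin 5′ probe set was 0.406, with 48 of the 268 below it, and that of the middle probe set was 0.334, with 23 below it. Any flattening of signal at the top of the scale could narrow these SDs, for all 268 probe sets, and it was not measured.

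In the leaf course, Ubiquitin was higher at both senescing stages than before, on the 5′ and middle probe sets. In stage order, the 5′ probe set read 13.24, 13.44 and 13.09 in leaf 13. In leaf 23 it read 13.06, 13.63 and 13.11, where the high value is the array that resembled flag leaf. Flag leaf 49 gave 13.19, 13.42, 13.07, 13.24 and 13.24.

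At early senescence the flag leaf 75 arrays read 13.72, 13.75 and 13.78, and flag leaf 85 read 13.71, 13.69 and 13.76. The 6 arrays of the senescing flag leaf all lay above the 11 younger leaf arrays, the nearest being leaf 23 replicate 2. How many of all plant probe sets separate in this way was not counted.

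The difference between flag leaf 75 and flag leaf 49 was tested with limma over all 61140 plant probe sets, and a call was made at a Benjamini-Hochberg adjusted p under 0.05. Ubiquitin rose by 0.52 on the 5′ probe set (SE 0.11, 95% interval 0.29 to 0.74, 1.43-fold, adjusted p = 0.000818). It rose by 0.36 on the middle one (SE 0.0864, 1.28-fold, adjusted p = 0.00266). On the 3′ probe set the difference was 0.23 (95% interval -0.03 to 0.50, adjusted p = 0.225), with overlapping arrays: 11.73, 11.71 and 11.81 in flag leaf 75, against 11.20 to 11.76 with a median of 11.61 in flag leaf 49. Of all plant probe sets, 10.6% were called higher in this comparison. With flag leaf 49 replicates 4 and 5 left out, the differences were 0.52 (adjusted p = 0.00384), 0.31 (adjusted p = 0.0235) and 0.08 (adjusted p = 0.756) on the 5′, middle and 3′ probe sets. When only these groups were fitted, the middle probe set no longer passed (adjusted p = 0.0915).

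Other bright probe sets moved in the same direction at this step. The 268 probe sets with a mean over 12 had a median difference of 0.25 between flag leaf 75 and flag leaf 49, with quartiles of 0.01 and 0.44, while the median of all plant probe sets was -0.05. The Ubiquitin 5′ probe set lay above the upper quartile of these bright probe sets and the middle probe set inside the quartiles. The values of an array were also more widely spread in the senescing leaf, with an SD over its probe sets of 2.27 to 2.31 on the 6 older arrays and 2.11 to 2.24 on the 11 younger ones. After quantile normalization, which gives all arrays the same spread, the 5′ difference was 0.54 (adjusted p = 0.000198).

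Between late and early senescence no difference passed the test. Flag leaf 85 minus flag leaf 75 gave -0.03 on the 5′ probe set (95% interval -0.28 to 0.22), -0.0033 on the middle (-0.20 to 0.19) and -0.09 on the 3′ probe set (-0.39 to 0.20), each with an adjusted p of 0.999. In this comparison 0.0278% of plant probe sets were called in either direction, 17 in all by limma, with 3279 at an unadjusted p under 0.05.

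Set against flag leaf 49, flag leaf 85 was higher by 0.49 on the 5′ probe set (1.40-fold, adjusted p = 0.00135) and by 0.36 on the middle (1.28-fold, adjusted p = 0.0026). On the 3′ probe set the difference was 0.14 (95% interval -0.13 to 0.40, adjusted p = 0.512). The background was 10.7% called higher. This comparison shares its flag leaf 49 arrays with the one before, and here too the middle probe set did not pass when only these groups were fitted (adjusted p = 0.0925). Without flag leaf 49 replicates 4 and 5 the differences were 0.49 (adjusted p = 0.00561), 0.31 (adjusted p = 0.0236) and -0.01 (adjusted p = 0.967) on the 5′, middle and 3′ probe sets. The mean of all 3 then no longer passed (0.26, adjusted p = 0.0886).

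From end to end of the course, flag leaf 85 exceeded leaf 13 by 0.46 on the 5′ probe set (95% interval 0.21 to 0.71, 1.38-fold, adjusted p = 0.0028). On the middle probe set it was higher by 0.29 (adjusted p = 0.0163), a call that was lost without leaf 13 replicate 3 (0.24, adjusted p = 0.0786). On the 3′ it differed by -0.01 (95% interval -0.31 to 0.28, adjusted p = 0.955). In this comparison 20% of plant probe sets were called higher. Fitted on these groups alone, the 5′ and middle probe sets did not pass (adjusted p = 0.067 and 0.187), and after centring on the spikes the 5′ difference was 0.36 (adjusted p = 0.265).

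No step among the younger leaves passed the test. Leaf 23 minus leaf 13 was 0.01 on the 5′ probe set (95% interval -0.24 to 0.26, adjusted p = 0.981), 0.01 on the middle (-0.19 to 0.21, adjusted p = 0.976) and -0.06 on the 3′ probe set (-0.35 to 0.24, adjusted p = 0.893), where 5.85% of plant probe sets were called. Flag leaf 49 minus leaf 23 was -0.03 on the 5′ probe set (95% interval -0.26 to 0.19, adjusted p = 0.919), -0.08 on the middle (-0.25 to 0.10, adjusted p = 0.706) and -0.10 on the 3′ probe set (-0.36 to 0.17, adjusted p = 0.777), where 6.78% were called. Leaf 23 replicate 2 weighs on both: without it the 5′ differences were -0.17 and 0.15, and neither passed.

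**Figure D2:**
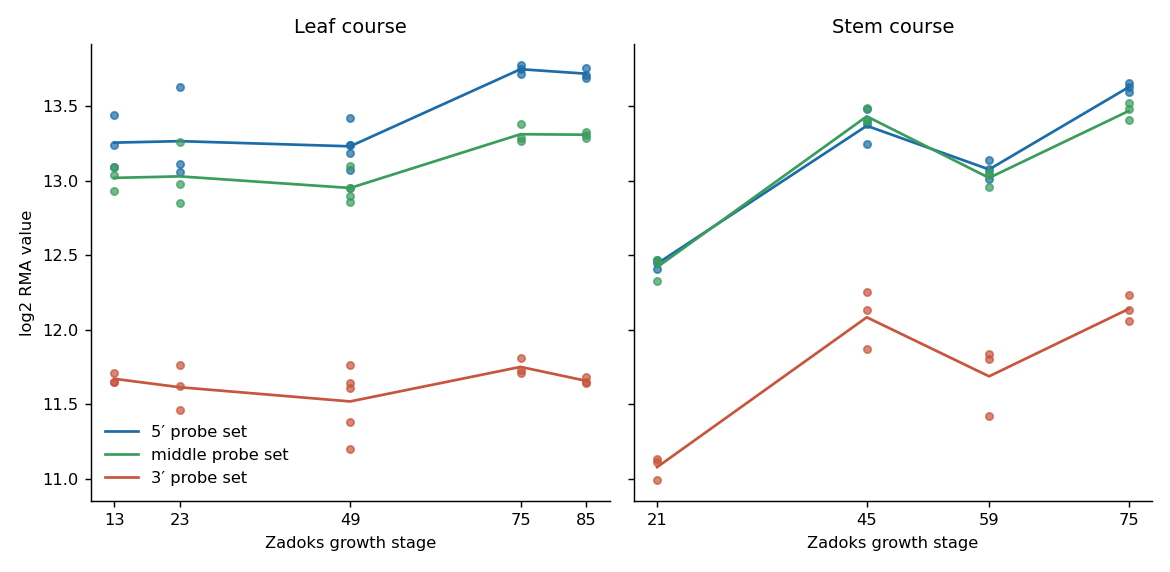
Log2 RMA value (vertical axis) of the 3 Ubiquitin probe sets by Zadoks stage (horizontal axis) in the leaf course and the stem course, with points for arrays and lines through group means. In leaf the 5′ line runs at 13.26, 13.27 and 13.23 up to stage 49 and at 13.75 and 13.72 at stages 75 and 85, and in stem all 3 lines are lowest at stage 21 and high at stages 45 and 75.

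Pooled over the course, the 5′ probe set averaged 13.74 ± 0.034 in the senescing flag leaf (n = 6) and 13.25 ± 0.18 in the younger leaf (n = 11). The difference of 0.49 had an exact permutation p of 8.08e-05, the smallest that the 12376 arrangements allow (two-sided). The test shuffles single arrays, although they are grouped by stage, so its p does not measure the spread between stages. Likewise, the middle probe set averaged 13.31 ± 0.039 in the senescing flag leaf and 12.99 ± 0.12 in the younger leaf, a difference of 0.32 with the same exact p of 8.08e-05, and here too all 11 younger arrays lay below the 6 older ones. For the 3′ probe set the mean was 11.70 ± 0.063 in the senescing flag leaf and 11.59 ± 0.17 in the younger leaf, a difference of 0.12 (exact permutation p = 0.128). The 3′ difference passed with arrays centred on their medians (0.19, exact p = 0.0219) or on actin, ef1a and gapdh, genes that read near background here (0.32, exact p = 0.0038). Without flag leaf 49 replicates 4 and 5 the differences were 0.48 on the 5′ (exact p = 0.0004), 0.29 on the middle (exact p = 0.0004) and 0.05 on the 3′ probe set (exact p = 0.267). Leaving out any 1 leaf array, leaf 23 replicate 2 among them, gave 0.47 to 0.53 on the 5′ probe set (exact p = 0.000125 to 0.000375).

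The stem course was steeper and not one-way, and its successive comparisons share arrays. In stage order the 5′ probe set read 12.41, 12.47 and 12.45 in stem 21, then 13.48, 13.25 and 13.38 in stem 45. It read 13.08, 13.14 and 13.01 in stem 59, and 13.66, 13.60 and 13.63 in stem 75. No array overlapped between successive stages: stem 21 was low, stem 45 high, stem 59 between them, and stem 75 highest. How many other probe sets show no overlap was not counted.

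Ubiquitin rose on all 3 probe sets between stem 45 and stem 21. Its 5′ probe set was higher in stem 45 by 0.93 (SE 0.123, 1.90-fold, adjusted p = 1.17e-07), the middle by 1.01 (SE 0.0965, 2.02-fold, adjusted p = 6.1e-11) and the 3′ by 1.01 (SE 0.147, 2.01-fold, adjusted p = 7.08e-07). The background was 15.5% of plant probe sets called higher, and 6.82% were called higher by at least 1, the size reached by the middle and 3′ probe sets. The 268 bright probe sets had a median difference of 0.29, with quartiles of -0.40 and 0.83, and the Ubiquitin 5′ and middle probe sets, which are among them, lay above the upper one.

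From stem 45 to stem 59 the middle probe set fell by 0.41, with 13.04, 13.06 and 12.96 in stem 59 against 13.49, 13.41 and 13.40 in stem 45 (adjusted p = 0.00427). On the 5′ probe set stem 59 differed by -0.29 (95% interval -0.54 to -0.04, adjusted p = 0.168) and the 3′ by -0.40 (95% interval -0.69 to -0.10, adjusted p = 0.0984). On each of the 3 probe sets, which are read from the same arrays, the stem 59 arrays all lay below the stem 45 arrays. The share of plant probe sets that separate so was not counted, and the separation does not replace the test. In this comparison 4.29% of plant probe sets were called lower. The 5′ difference passed with array weights (-0.29, adjusted p = 0.00769) and with arrays centred on actin, ef1a and gapdh (-0.47, adjusted p = 0.022). The middle one did not pass with arrays centred on the spikes (-0.23, adjusted p = 0.688).

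At stage 75, which the study's design calls early senescence of the stem, Ubiquitin was higher again. Against stem 59, the 5′ probe set rose by 0.55 (SE 0.123, 95% interval 0.30 to 0.80, 1.47-fold, adjusted p = 0.000447) and the middle by 0.45 (1.37-fold, adjusted p = 0.00028). Its 3′ probe set read 12.06, 12.13 and 12.23 in stem 75, against 11.84, 11.80 and 11.42 in stem 59, a rise of 0.45 (adjusted p = 0.0164). That call was lost without stem 59 replicate 3, its low array (0.32, adjusted p = 0.164), and without stem 75 replicate 3 (0.41, adjusted p = 0.0688). Of all plant probe sets, 15.2% were called higher. The 268 bright probe sets had a median of -0.23 here, with quartiles of -0.65 and 0.41, and the Ubiquitin 5′ and middle probe sets lay above the upper one. After centring on the spikes, however, none of the 3 passed, with 0.28 on the 5′ (adjusted p = 0.427), 0.18 on the middle (adjusted p = 0.595) and 0.18 on the 3′ probe set (adjusted p = 0.641).

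Over the whole stem course each of the 3 probe sets had its largest rise among the successive and end-to-end comparisons of leaf and stem. Stem 75 exceeded stem 21 by 1.19 on the 5′ probe set (SE 0.123, 95% interval 0.94 to 1.44, 2.28-fold, adjusted p = 2.55e-10), by 1.05 on the middle (2.07-fold, adjusted p = 1.35e-11) and by 1.06 on the 3′ (2.09-fold, adjusted p = 1.42e-07). The background was 19.1% called higher and 9.23% called higher by at least 1. Pooling the earlier stages, the 5′ probe set averaged 13.63 ± 0.03 in stem 75 (n = 3) and 12.96 ± 0.42 at stages 21 to 59 (n = 9), a difference of 0.67 (exact permutation p = 0.0182, two-sided; the smallest of 220 arrangements is 0.00455). All 9 earlier arrays lay below stem 75, and the share of plant probe sets that separate so was not counted. Here too single arrays were shuffled, although the means of stages 21, 45 and 59 differ (12.44, 13.37 and 13.08). The call was lost without any 1 of the 3 stem 75 arrays (exact p = 0.0727 each) and after centring on the spikes (0.56, exact p = 0.109). The middle and 3′ probe sets gave 0.51 (exact p = 0.0727) and 0.52 (exact p = 0.0909), with stem 45 arrays reaching into the stem 75 range. Both passed with arrays centred on actin, ef1a and gapdh (0.73, exact p = 0.00909, and 0.74, exact p = 0.0182). The 3′ difference also passed without stem 45 replicate 1 (0.60, exact p = 0.0424) and without stem 45 replicate 3 (0.59, exact p = 0.0485).

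Leaf and stem were then compared directly. The change into stage 75 on the 5′ probe set was 0.52 in leaf, from flag leaf 49, and 0.55 in stem, from stem 59. The starting stages thus differ, and the stem 59 mean lay below that of stem 45 on each probe set. In stem 45 the 5′, middle and 3′ means were 13.37, 13.43 and 12.08. In stem 75 they were 13.63, 13.47 and 12.14. The leaf change was tested only against the stem change from stem 59. Subtracting the stem change from that in leaf left -0.04 on the 5′ (95% interval -0.37 to 0.30, adjusted p = 0.918), -0.09 on the middle (-0.35 to 0.17, adjusted p = 0.703) and -0.22 on the 3′ probe set (-0.62 to 0.18, adjusted p = 0.494). Centring on the spikes gave 0.88 in leaf and 0.28 in stem on the 5′ probe set, and a leaf minus stem difference of 0.60 (adjusted p = 0.138). That leaf value takes in flag leaf 49 replicates 4 and 5, with spike means of 11.90 and 12.48. In replicates 1 to 3 the spike means were 11.40 to 11.60. Centring on the spikes without those 2 high arrays was not run, so how far the closeness of the changes depends on the scaling was not settled. The median of all plant probe sets in this comparison was -0.11, and 20.4% were called in either direction.

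The end-to-end changes did differ. Flag leaf 85 minus leaf 13 was smaller than stem 75 minus stem 21 by 0.72 on the 5′ probe set (difference of -0.72, 95% interval -1.08 to -0.37, adjusted p = 0.00247), with -0.76 on the middle (adjusted p = 7.83e-05) and -1.08 on the 3′ probe set (adjusted p = 0.0002). In this comparison 8.59% of plant probe sets were called lower and 4.15% lower by at least 1, the size reached by the 3′ probe set. The 5′ difference did not pass with arrays centred on the spikes (-0.88, adjusted p = 0.0871) or on actin, ef1a and gapdh (-0.49, adjusted p = 0.0794). The low point of the comparison is stem 21, whose 3 arrays lay below every leaf array on the 5′, middle and 3′ probe sets. The share of plant probe sets for which this holds was not counted.

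At stage 75 itself, stem and flag leaf gave unlike answers by probe set. In stem 75 the 5′ probe set differed from flag leaf 75 by -0.12 (95% interval -0.37 to 0.13, adjusted p = 0.544) and the middle by 0.16 (-0.04 to 0.35, adjusted p = 0.262). Only on the 3′ probe set did stem 75 stand higher, by 0.39 (adjusted p = 0.0467), where 13.1% of plant probe sets were called higher. That call was lost when any 1 of the 6 arrays was left out (adjusted p = 0.063 to 0.145).

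**Figure D3:**
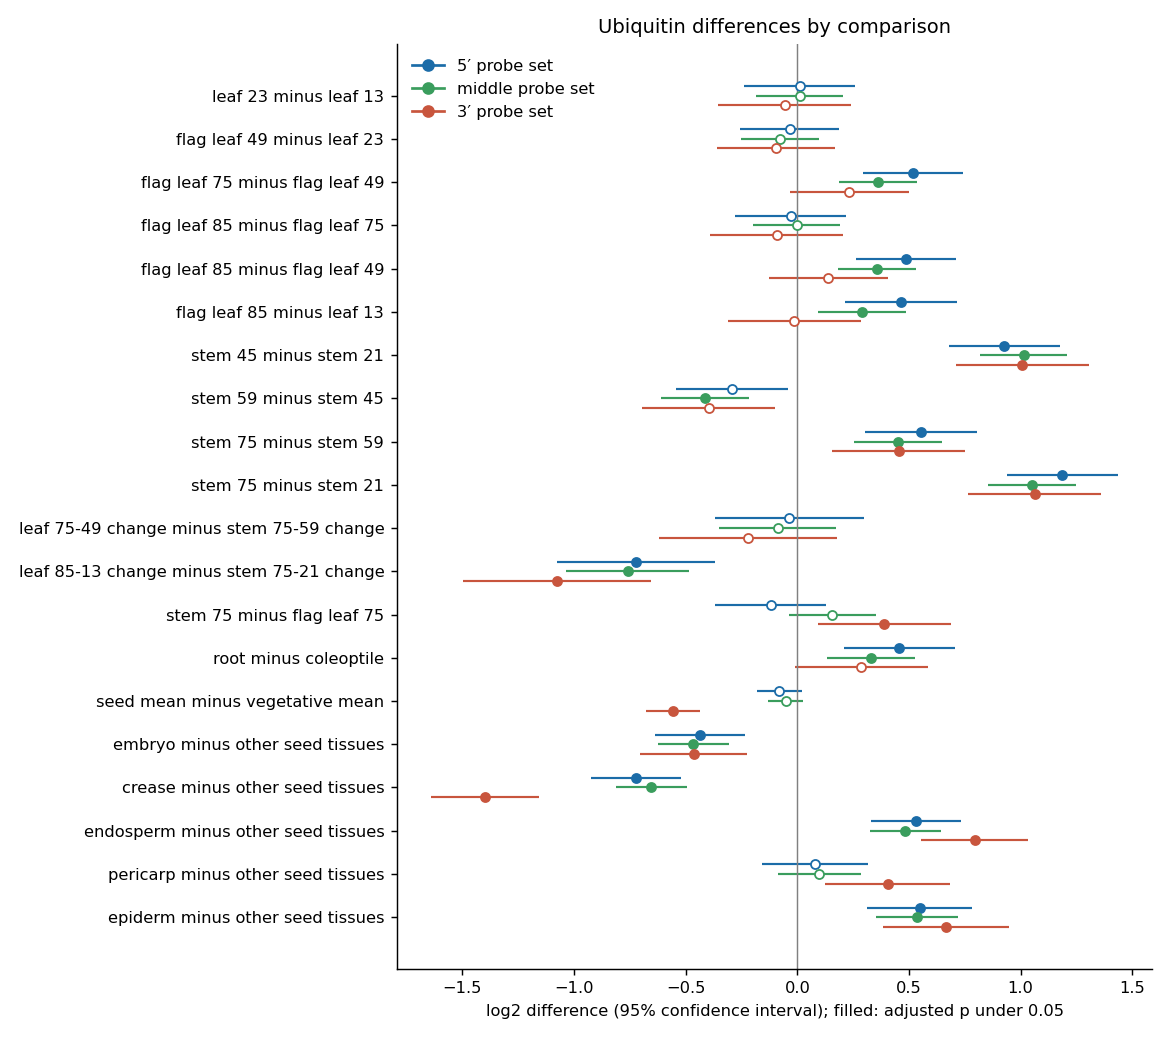
Log2 differences (horizontal axis) of the 3 Ubiquitin probe sets in each comparison, first group minus second, with 95% confidence intervals and filled points where the adjusted p was under 0.05. The largest rise is stem 75 over stem 21 and the largest fall is the crease against the other seed tissues on the 3′ probe set.

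In seedlings, root exceeded coleoptile. Root arrays read 13.90, 13.82 and 13.99 on the 5′ probe set, against 13.37, 13.46 and 13.51 in coleoptile, a difference of 0.46 (95% interval 0.21 to 0.71, 1.37-fold, adjusted p = 0.00386). On the middle probe set root was higher by 0.33 (adjusted p = 0.00796), a call lost without root replicate 1 (0.27, adjusted p = 0.0669), and the 3′ probe set differed by 0.29 (95% interval -0.01 to 0.58, adjusted p = 0.173). Of all plant probe sets, 14.7% were called higher. The bright probe sets had a median of 0.21, with quartiles of -0.12 and 0.50, and both Ubiquitin differences lay inside them. With arrays centred on actin, ef1a and gapdh the 5′ difference was 0.11 (adjusted p = 0.504), and the middle one turned to -0.01 (adjusted p = 0.933).

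Among seed tissues, Ubiquitin was high in endosperm and epiderm and low in crease and embryo, and each tissue was set against the mean of the other 4. These comparisons share their arrays. On the 5′ probe set the arrays read 13.71, 13.72 and 13.72 in endosperm, 13.69 and 13.77 in epiderm, 13.30 and 13.41 in pericarp, 12.94, 13.08 and 12.81 in embryo, and 12.81, 12.92 and 12.41 in crease. The arrays of endosperm and epiderm thus all lay above those of pericarp, which lay above all those of embryo and crease. How many of all plant probe sets part the seed tissues in such a way was not counted.

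The endosperm was higher by 0.53 on the 5′ (adjusted p = 7.1e-05), 0.48 on the middle (adjusted p = 6.26e-06) and 0.79 on the 3′ probe set (adjusted p = 1.61e-06), with 11.4% of plant probe sets called higher. The epiderm was higher by 0.55, 0.54 and 0.67 on the 5′, middle and 3′ probe sets (adjusted p = 0.000282, 1.08e-05 and 0.000215), with a background of 12.4%. After centring on the spikes the epiderm did not pass on the 5′ (0.53, adjusted p = 0.0939) or the middle probe set (0.52, adjusted p = 0.0733). The pericarp differed by 0.08 on the 5′ (95% interval -0.16 to 0.31, adjusted p = 0.749) and 0.10 on the middle (-0.09 to 0.28, adjusted p = 0.558). Its 3′ probe set was higher by 0.40 (adjusted p = 0.0346), a call lost without either pericarp array (adjusted p = 0.172 and 0.232), where 8.24% were called higher.

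The embryo was lower by 0.44 on the 5′ probe set (difference of -0.44, adjusted p = 0.000432), by 0.47 on the middle (-0.47, adjusted p = 4.38e-06) and by 0.46 on the 3′ (-0.46, adjusted p = 0.00148). The background was 17.2% called lower. The 3′ call was lost without embryo replicate 1 (-0.32, adjusted p = 0.0689), and after centring on the spikes none of the 3 passed, with -0.03 on the 5′ (adjusted p = 0.889), -0.06 on the middle (adjusted p = 0.764) and -0.06 on the 3′ probe set (adjusted p = 0.798). The crease, which contains the vascular tissue that feeds the grain, was lower by 0.72 on the 5′ (difference of -0.72, adjusted p = 1.17e-07) and by 0.65 on the middle probe set (-0.65, adjusted p = 5.24e-09). On the 3′ probe set it was lower by 1.40 (-1.40, 2.64-fold, adjusted p = 9.11e-13), with arrays at 9.72, 10.21 and 10.05, below every other array of the series. The share of plant probe sets with all crease arrays lowest was not counted. In the crease comparison 18.5% of plant probe sets were called lower and 9.53% lower by at least 1. The 268 bright probe sets had a median of -0.26 in the crease comparison, with quartiles of -1.10 and 0.10, and the Ubiquitin 5′ and middle probe sets lay inside them. They also lay inside the quartiles for embryo (-0.65 and 0.57) and endosperm (-0.12 and 0.76), and above the upper one for epiderm (-0.48 and 0.44).

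Seed and vegetative groups as a whole differed by probe set. The seed mean was 13.29 and the vegetative mean 13.37 on the 5′ probe set, a difference of -0.08 (95% interval -0.18 to 0.02, adjusted p = 0.172), and the middle probe set gave -0.05 (-0.13 to 0.03, adjusted p = 0.27). The mean of the 3′ probe set was 11.11 in seed and 11.67 in vegetative groups, so that the seed mean was lower by 0.56 (adjusted p = 1.27e-10). In this comparison 25.9% of plant probe sets were called lower. The seed tissues were not alike in it. Crease (9.99) and embryo (10.74) lay below every vegetative group mean. Endosperm (11.75), epiderm (11.645) and pericarp (11.435) lay among the vegetative means, which ran between 11.08 in stem 21 and 12.14 in stem 75.

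The offset between the ends of the Ubiquitin transcript varied by organ. The 5′ minus 3′ difference within an array averaged 2.72 ± 0.37 in crease, 2.20 ± 0.27 in embryo and 2.18 ± 0.035 in root (SD, n = 3 each), against 1.29 ± 0.081 in stem 45 at the low end. All 12 stem arrays lay between 1.23 and 1.60. This offset sets probe sets with different probes side by side, so only its change between groups is read, not its size.

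In leaf the Ubiquitin offset moved with age. It read 1.97 to 2.12 with a median of 2.02 on the 6 senescing flag leaf arrays and 1.44 to 2.04 with a median of 1.60 on the 11 younger leaf arrays. Of the younger arrays 10 lay below the lowest older one, the exception being flag leaf 49 replicate 4 at 2.04. The difference of 0.37 had an exact permutation p of 0.00105 (two-sided), and without flag leaf 49 replicates 4 and 5 it was 0.43 (exact p = 0.0002). In stem the offset was 1.49 ± 0.10 at stage 75 (n = 3) and 1.35 ± 0.11 at stages 21 to 59 (n = 9), a difference of 0.14 (exact permutation p = 0.0818). This stem difference passed without stem 75 replicate 3 (0.19, exact p = 0.0364) and without stem 59 replicate 3 (0.17, exact p = 0.0121).

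Other genes measured at both ends are set beside it, each as 3′ minus 5′. Sucsyn and G-6-PDH are wheat genes named in the probe set IDs, and dap and thr are Bacillus genes whose probe sets serve as controls of the labelling. Sucsyn had offsets of 6.32, 7.30, 7.20 and 6.43 at stem stages 21, 45, 59 and 75, and 3.84 to 5.23 in all other groups. G-6-PDH had 2.18 to 2.73 in stem and 1.19 to 2.12 elsewhere, and thr had 1.92 to 2.50 in stem and 0.63 to 1.47 elsewhere. For dap the stem values were 1.66 to 2.04, with epiderm at 1.66 and all other groups at 1.28 or less. Stem thus had the steepest 3′ excess on all 4, with epiderm level with stem 21 on dap, and the smallest 5′ excess of Ubiquitin.

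Along the leaf course the 4 did not move together. At stages 49, 75 and 85 Sucsyn had offsets of 5.23, 4.57 and 4.42 and G-6-PDH of 1.82, 1.56 and 1.37, while dap had 0.50, 0.64 and 0.75 and thr 1.08, 1.17 and 1.26. Over the 16 group means, the Ubiquitin offset correlated at r = -0.86 with that of Sucsyn, -0.75 with G-6-PDH, -0.71 with thr and -0.43 with dap. These are descriptions over points that share arrays, labelling runs and extraction methods. The part of plant RNA quality in the Ubiquitin values was not tested, since dap and thr are Bacillus controls of the labelling. That of labelling was not tested beyond adding the mean dap and thr offset of each array to the fit. With that term the 5′ rise of flag leaf 75 over flag leaf 49 was 0.56 (adjusted p = 0.000357). The 3′ calls for stem 75 over flag leaf 75 (0.34, adjusted p = 0.759) and for pericarp (0.41, adjusted p = 0.0546) were lost. Between stem 75 and flag leaf 75 the term follows the organ, with dap at 2.04 and 0.64 and thr at 2.50 and 1.17. It cannot be told apart from the organ there, so the loss of that call cannot be read.

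**Figure D4:**
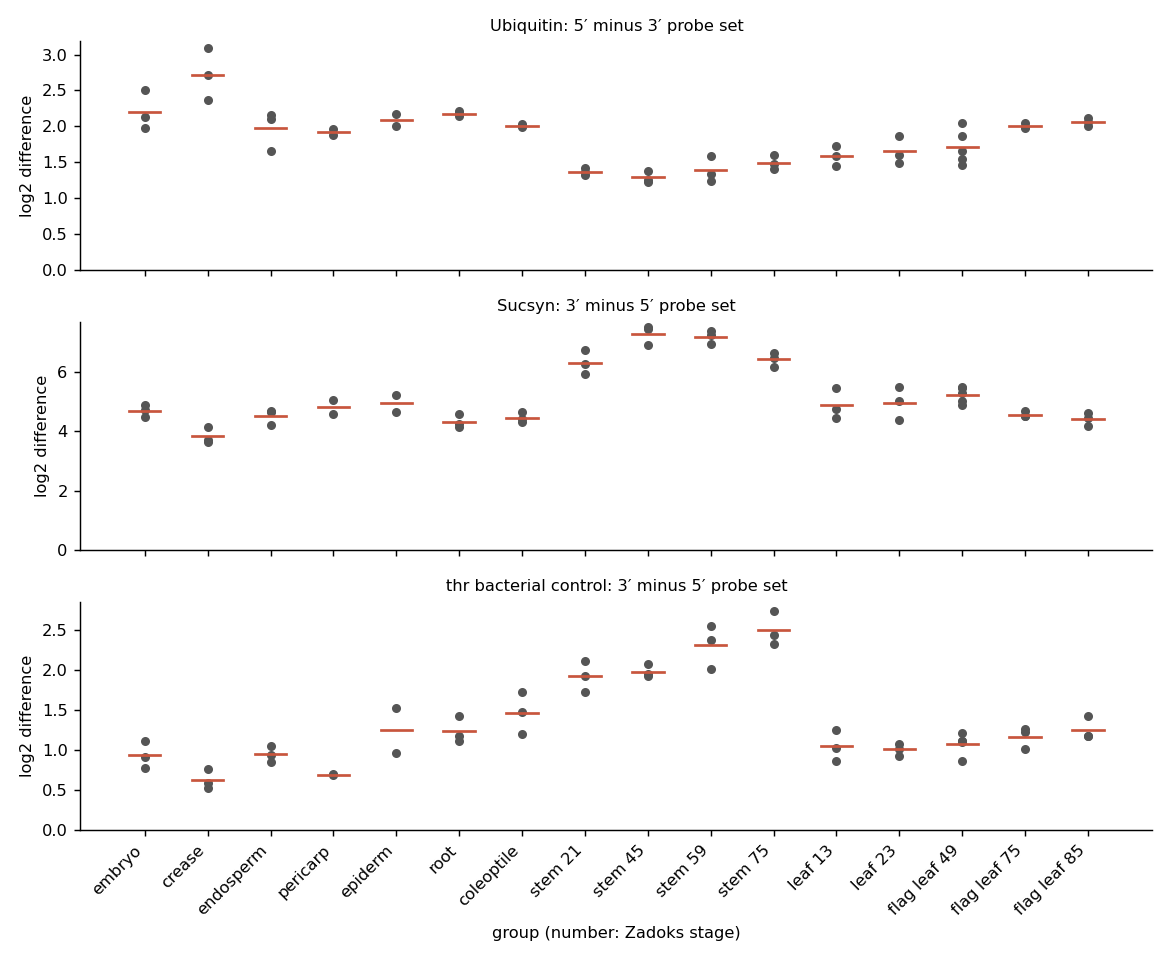
Offset between the ends of a transcript on each array (log2 difference, vertical axis) by group, for Ubiquitin as 5′ minus 3′ and for Sucsyn and thr as 3′ minus 5′, with bars at the group means. By group means, stem has the smallest offsets of Ubiquitin and the largest of Sucsyn and thr. Its arrays lie at 1.23 to 1.60 for Ubiquitin, a range that some younger leaf arrays share.

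Because Ubiquitin is a control gene, it was set beside the 7 other wheat genes named in control IDs, each by its brightest probe set. Actin, ef1a and gapdh, which encode a cytoskeleton protein, a translation factor and an enzyme of glycolysis, read near background, with overall means of 6.74, 5.16 and 6.23. Their group means ranged over 0.77, 0.66 and 1.40 on the log2 scale, against 1.46 for the Ubiquitin 5′ probe set. The ranges of CYP86-TA, Sucsyn, G-6-PDH and 18SrRNA were 1.72, 3.11, 3.39 and 8.03. On 18SrRNA stem stood apart, with group means of 13.17 to 13.28 in stem and 5.25 to 9.28 in all other groups. The cause was not tested, and this difference lies between stem and leaf in every comparison of these organs. A probe set near background has little room to fall, so the narrow ranges of actin and ef1a cannot be read as steadiness.

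Between flag leaf 75 and flag leaf 49, 0 of the 7 passed the limma test, where 19% of all plant probe sets were called in either direction. Their differences ran between -0.38 and 0.26, with actin at -0.18 (adjusted p = 0.431), gapdh at -0.19 (adjusted p = 0.37) and G-6-PDH at 0.26 (adjusted p = 0.329), the last near the 0.23 of the Ubiquitin 3′ probe set. At an unadjusted p under 0.05 the count for these 7 was also 0. Whether Ubiquitin changed by more than each of them was not tested gene by gene.

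Between stem 75 and stem 59, where Ubiquitin rose, 4 of the 7 fell and 3 did not pass, and 12% of all plant probe sets were called lower. Sucsyn fell by 1.29 (adjusted p = 1.1e-05), G-6-PDH by 0.82 (adjusted p = 0.00117), gapdh by 0.60 (adjusted p = 0.00202) and actin by 0.49 (adjusted p = 0.0221). The mean of gapdh in stem 75 was 5.89, below the background level. The actin call was lost after quantile normalization (adjusted p = 0.0584) and without stem 59 replicate 1 or 3 or stem 75 replicate 1 or 2 (adjusted p = 0.0567 to 0.0985), and the gapdh call in a fit on these groups alone (adjusted p = 0.0529). Centring on actin, ef1a and gapdh themselves also ended the calls for actin (adjusted p = 0.528), gapdh (adjusted p = 0.142) and G-6-PDH (adjusted p = 0.109).

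**Figure D5:**
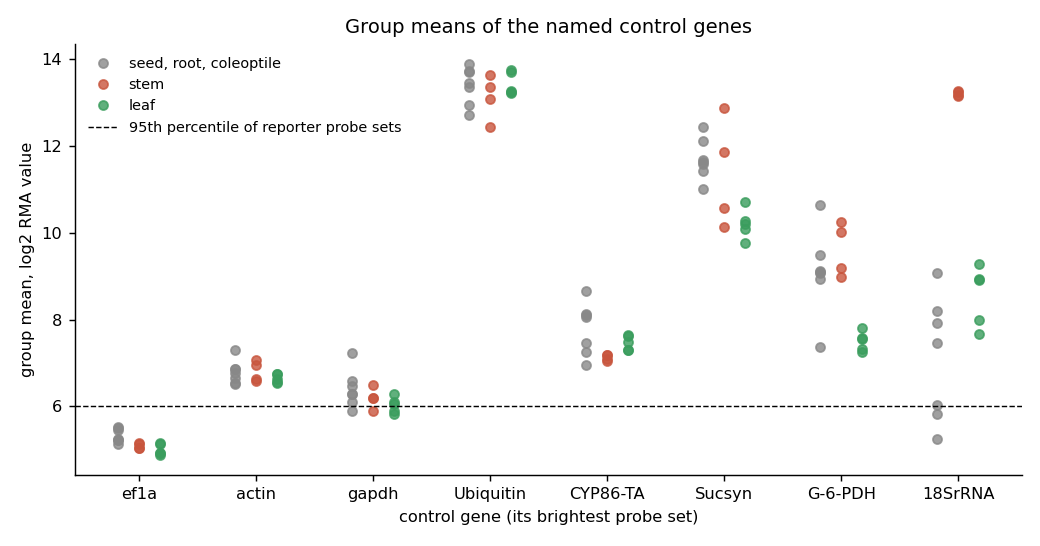
Group means (log2 RMA value, vertical axis) of the 8 named control genes, each by its brightest probe set and ordered by the range of its group means, with stem and leaf groups in colour and a dashed line at the 95th percentile of reporter probe sets (5.99). Ubiquitin lies above 12.4 in every group, while ef1a lies below the line throughout and gapdh crosses it.

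Last, the probe sets whose pattern over the 16 group means was most and least like that of the Ubiquitin 5′ probe set were found among the 21389 others with a mean above background. Ta.28553.13.S1_x_at (r = 0.974) and Ta.28553.13.S1_at (r = 0.957) came first, ahead of the Ubiquitin middle probe set at rank 3, whereas the Ubiquitin 3′ probe set stood at rank 441. Both Ta.28553.13 probe sets were picked for likeness over the same group means. Rises in the same comparisons are therefore partly built in by the choice, and the adjusted p values that follow are no test of the likeness. The first rose by 0.66 in flag leaf 75 over flag leaf 49 (adjusted p = 0.00541) and by 1.48 in stem 75 over stem 21 (adjusted p = 3.1e-08). The second rose by 0.54 (adjusted p = 0.0159) and 1.44 (adjusted p = 2.24e-08) in the same comparisons. Between flag leaf 85 and flag leaf 49 the first rose by 0.52 (adjusted p = 0.0283), while the second differed by 0.34 (adjusted p = 0.142). Neither passed between flag leaf 85 and leaf 13 (0.38 and 0.27, adjusted p = 0.117 and 0.257). Their IDs differ only in the suffix.

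At the other end were Ta.5583.1.S1_at (r = -0.896) and Ta.22175.1.S1_x_at (r = -0.843). Ta.5583.1.S1_at fell by 1.49 in stem 75 against stem 21 (adjusted p = 4.19e-06) and Ta.22175.1.S1_x_at fell by 1.29 (adjusted p = 3.71e-08). Between flag leaf 75 and flag leaf 49 they differed by -0.21 (adjusted p = 0.549) and 0.16 (adjusted p = 0.498). These 4 probe sets carry no gene name in the table used here, and they were chosen for their pattern, so their values are descriptions.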

How the data were processed

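Transcript levels were read on 48 arrays. The authors deposited 1 table of log2 values made with RMA, per the submitters' processing notes. Neither its software nor its version is given in the sources used here. No base is named for the logarithm, and it was taken as 2, RMA's usual base, with values of 1.92 to 15. Since RMA evens out the arrays' distributions, it hides a shift of most transcripts at once. The number of arrays limits the precision.

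The plant probe sets tested were 61140, with 25 named after 8 wheat genes among them. limma 3.58.1 in R 4.3.3 fitted a mean per group on all 48 arrays (32 residual and 5.59 prior degrees of freedom). P-values were Benjamini-Hochberg adjusted over all probe sets within each of the 20 comparisons, two-sided, and were not adjusted across comparisons. Pooled leaf and stem stages were compared by exact permutation tests over arrays in Python 3.11.15. These tests take arrays as exchangeable and leave out their grouping by stage. The labels do not say whether plants were pooled, so p-values measure the spread between these samples. No arrays held identical values. Where arrays of groups are said not to overlap, the share of all plant probe sets that do the same was not counted.

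Named probe sets were all those of Ubiquitin, the brightest of each other named gene, and the 2 most and 2 least like Ubiquitin over group means. Of the probe sets, 1273 had a gene symbol, none of which matched the lists of proteasome, autophagy, photosynthesis or cell type genes, so those lists were not tested. The members and lists were chosen with earlier results of these data known. The fit was tested on simulated data with known changes. Alternatives were 4 other scalings of the arrays, a filter on dim probe sets, another variance prior, array weights, a replicate block, a fit on the compared groups only, and leaving out each array.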

Additional observations from a re-analysis of the deposited data

Results flagged for a closer look

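The end-to-end change of Ubiquitin differed between leaf and stem in the test of the difference itself. Flag leaf 85 minus leaf 13, less stem 75 minus stem 21, was -0.72 on the 5′ probe set, -0.76 on the middle and -1.08 on the 3′ probe set (limma, adjusted p = 0.00247, 7.83e-05 and 0.0002). In leaf the 3′ probe set differed by -0.01 over the course, and in stem it rose by 1.06. The leaf course began at stage 13 and the stem course at stage 21, and the stem RNA had an added cleanup, whose part was not tested.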

How the results depend on the processing

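Of 459 alternative values over the 22 main comparisons of the 5′ probe set, 444 kept their call, and sign changes between values that both missed the threshold were counted as kept. The hybridization spikes moved most calls: centring on them gave flag leaf 85 minus leaf 13 of 0.36, stem 75 minus stem 59 of 0.28, an end-to-end leaf minus stem difference of -0.88, embryo -0.032, epiderm 0.53 and stem 75 minus earlier stem 0.56 (exact p = 0.109), none of which passed, and turned the seed minus vegetative difference of the mean of 3 probe sets to 0.0013 (adjusted p = 0.99). Centring on actin, ef1a and gapdh ended the calls for the end-to-end difference (-0.49) and root minus coleoptile (0.11; middle probe set turned to -0.013), and brought stem 59 minus stem 45 (-0.47) and seed minus vegetative (-0.26, adjusted p = 8.7e-05) past the threshold, as array weights did for stem 59 minus stem 45 (-0.29). A fit on the compared groups alone ended the call for flag leaf 85 minus leaf 13 (0.46, adjusted p = 0.067). Leaving out each array gave 0.60 to 0.73 for stem 75 minus earlier stem, and exact p = 0.0727 without any 1 stem 75 array. Same-numbered replicates did not all deviate together (r of -0.22 to 0.27, with all pairs over 0.1 in 0 of 12 comparisons). Whether they belong together was not settled, and the main fit treated them as unpaired. The replicate block changed no call of the 5′ probe set (flag leaf 75 minus flag leaf 49 stayed 0.52, adjusted p = 0.00272) and ended the call for the mean of 3 probe sets in flag leaf 85 minus flag leaf 49, at 0.26 (adjusted p = 0.0857). The causes were not tested. Leaving out flag leaf 49 replicates 4 and 5 and the dap and thr term were chosen after seeing the data.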
